A study of Mus musculus with 6 samples.

Results

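Pancreatic islets of control mice at postnatal day 24 are described here from all 3 libraries titled as P24 control islets, out of 6 in the series; the 3 knockout libraries were not used. Each library holds polyadenylated RNA from 100 to 200 handpicked islets of 1 mouse of strain C57BL/6, and the labels describe all the mice as male. The genotype is given only as "Control", and which alleles the control mice carry is not stated. All 54119 annotated genes that matched the transcripts in the files were taken as members, and no gene was left out of the levels. Levels are given as TPM, reads per base of effective transcript length scaled to the same sum in each library. A gene is compared between libraries by CPM, its reads scaled to library sizes that were corrected by the trimmed mean of M values and do not include its length.

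An islet is a cluster of hormone cells within the exocrine pancreas. Beta cells make insulin and islet amyloid polypeptide, alpha cells glucagon, delta cells somatostatin, PP cells pancreatic polypeptide, and a few cells ghrelin. In the weeks around weaning, mouse beta cells take on their mature glucose response, and prohormones are cut and stored in granules until glucose triggers release. Because each library is a pool of all these cells, fewer cells of a type and less RNA per cell cannot be told apart.

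One library goes against its label. Xist, the RNA that coats the inactive X chromosome of female cells, stood at 0.642, 875.7 and 0.433 CPM in replicates 1, 2 and 3. The Y-linked genes were low in the same library. Kdm5d stood at 33.0, 0.450 and 33.2 CPM, Eif2s3y at 61.4, 0.0409 and 64.1 CPM, and Ddx3y at 160.8, 0 and 90.6 CPM. The library labelled as control replicate 2 thus carried Xist and almost no Y-linked RNA, while replicates 1 and 3 did the opposite. Whether this is a female mouse or an exchanged sample was not tested; if it was exchanged, its values may not describe a control islet. Levels are mostly given per replicate so that it can be set aside, and the hormone and insulin shares, the share of genes with no read and the edgeR test of spread also without it.

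The libraries held 25208847, 25354384 and 24575889 estimated reads. Between pairs of libraries, Pearson's r of log2 CPM over the 15325 tested genes was 0.968 to 0.982, a description across genes that share libraries and depth. Between 2.55% and 5.47% of those genes differed by over 2-fold in a pair, least between replicates 2 and 3 and most between 1 and 2. Marker genes put the tissue where the label does: insulin, glucagon, somatostatin and pancreatic polypeptide were among the 12 highest genes by mean TPM.

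The 8 hormone genes together held 51.5%, 60.8% and 53.7% of all TPM in replicates 1, 2 and 3, a mean of 55.4% ± 4.87 (SD, n = 3), or 52.6% without replicate 2. Ins2, the mouse counterpart of the human insulin gene, held 35.2%, 46.1% and 38.2%. Ins1, a second insulin gene of rodents that arose as a retrocopy, held 4.23%, 7.25% and 5.64%. Both insulin genes were highest in replicate 2 and lowest in replicate 1. Together they made up 45.5% on average and 41.7% without replicate 2.

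Gcg, the precursor of glucagon, ran the other way, with 7.50%, 3.47% and 5.24% of TPM. Ppy, pancreatic polypeptide, held 1.40%, 0.653% and 1.08%, and Pyy, peptide YY, 0.723%, 0.399% and 0.666%. All 3 were highest in replicate 1 and lowest in replicate 2. Iapp, which is packed with insulin, held 1.89%, 2.48% and 2.38%, and followed the insulin genes in being lowest in replicate 1 and highest in replicate 2. Sst, somatostatin, was level at 0.544%, 0.479% and 0.497%. Ghrl, ghrelin, was far below the rest with 0.00346%, 0.00160% and 0.00608%.

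The ratio of insulin to Gcg by TPM was therefore 5.26, 15.4 and 8.37, a 2.92-fold range over 3 mice, while the ratio of Gcg to Ppy stayed between 4.85 and 5.36 and that of insulin to Iapp between 18.4 and 21.5. In order of mean level the hormones ran Ins2, Ins1, Gcg, Iapp, Ppy, Pyy, Sst and Ghrl. The ranges of Ins1 and Gcg overlapped, with Gcg above Ins1 in 1 library, as did those of Ppy and Pyy and those of Pyy and Sst. The ranges of the other neighbours in this order did not overlap. In the test of spread described further on, no gene was called, the 8 hormones included, and of the 8 Ghrl alone passed 0.05 before adjustment (adjusted p = 0.965 by edgeR).

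**Figure D1:**
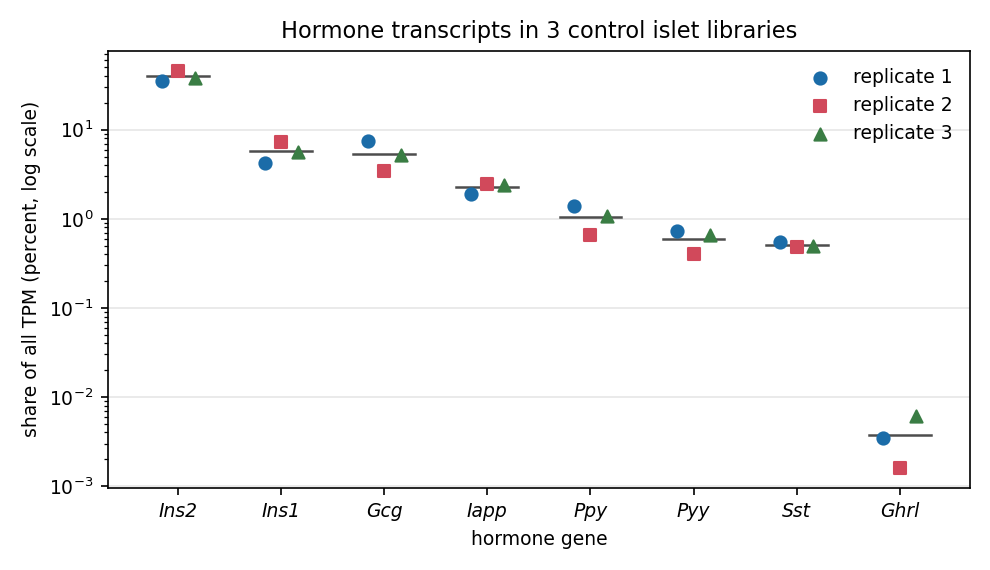
Share of all TPM (percent, log scale) held by each of the 8 hormone genes; each symbol is 1 control library and each line the mean of 3. Ins2 holds 35.2% to 46.1%, Gcg is highest in replicate 1 and lowest in replicate 2, and Ins1 is the reverse.

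The insulin share depends on how length is counted. By estimated reads, with no length in it, the insulin genes held 17.3% and the 8 hormones 24.3%, and in the authors' deposited gene table, which has no length scaling, the shares were also 17.3% and 24.3%. The hormone transcripts are short: 1 Ins2 transcript of 455 bases carried 80.6% to 81.5% of the gene's TPM, and its effective length was 268 to 269.6 bases. Dividing reads by the full transcript length gave an insulin share of 40.1%. Ins1 lies on chromosome 19 (GRCm38, 52264297 to 52265476, plus strand), and its only annotated transcript of 1062 bases runs 461 bases past the RefSeq end of the gene. With Ins1 taken only to that end and all its reads kept, its mean share was 11.6% of TPM in place of 5.70%, and the ratio of Ins2 to Ins1 was 3.83, 2.92 and 3.12 in place of 8.33, 6.36 and 6.78. This assumes that no read lies in the 461 bases beyond, which was not checked. The ratio by reads was 2.68, 2.04 and 2.18, so Ins2 exceeded Ins1 in each library on each of these scales.

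Outside the hormones the libraries were much alike in how RNA was spread over genes. It took 5, 2 and 4 genes to reach 50% of TPM in replicates 1, 2 and 3, but 417, 456 and 465 genes once the hormones were set aside. The 100 highest genes held 66.9%, 72.8% and 67.7% of TPM, and 32.5%, 31.3% and 31.1% of what lay outside the hormones. Of the 100 highest genes of each library, 88 were shared by all 3. By estimated reads, 416 genes on average were needed to reach 50%.

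**Figure D2:**
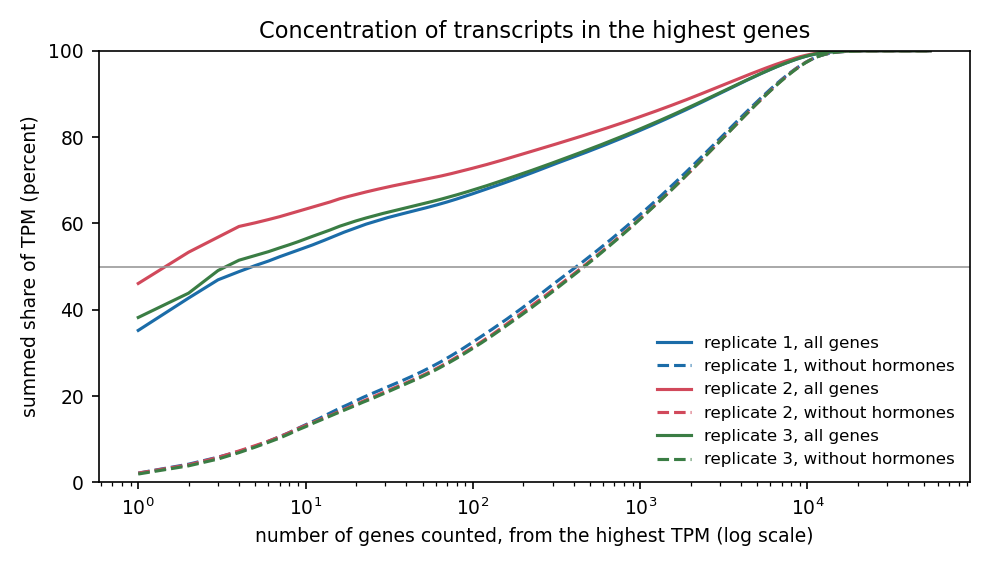
Summed share of TPM (percent) against the number of genes counted from the highest (log scale), for all genes (solid) and without the 8 hormones (dashed), 1 colour per control library. With all genes the curves pass 50% after 5, 2 and 4 genes; without hormones they lie on each other and pass it after 417 to 465.

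Of the 25 genes of highest mean TPM, 19 were protein coding, 7 were hormones and 8 were encoded by the mitochondrial genome, which supplies subunits of the respiratory chain. Mitochondrial mRNAs were led by mt-Atp8 at 10001, 6701 and 8761 TPM and mt-Co1 at 7879, 5865 and 6835 TPM, and the 13 of them held 4.40%, 3.22% and 3.82%. Another 5 were pseudogenes that sit side by side on chromosome 1 (GRCm38, 24612407 to 24615565), led by Gm28661 at 10467, 7524 and 9010 TPM, whose sequences are near copies of mitochondrial genes. Their levels are uncertain, since reads of the mitochondrial genes can be split with them. Bc1, a short noncoding RNA known from neurons, was the highest lincRNA with 6351, 4836 and 7291 TPM, and it too is uncertain, as a very short transcript takes a large TPM per read. Chga, the granule protein chromogranin A, came ninth with 5644, 8433 and 5908 TPM. Scg2, another granin, stood at 2077, 1870 and 2145 TPM, and Eef1a1, a translation factor, at 2625, 1971 and 2226 TPM.

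Of the 16 secretory granule genes listed, 15 were above 100 TPM on average. After Chga and Scg2 came Cpe, which trims prohormones, at 1919, 1454 and 1672 TPM, Resp18 at 1677, 1226 and 1278 TPM, and Pcsk2, a prohormone convertase that releases glucagon from its precursor, at 903, 796 and 846 TPM. The list as a whole took 1.62%, 1.78% and 1.57% of TPM, and replicate 2 was highest for 11 of 16 members by CPM but for 3 of 16 by TPM. The median coefficient of variation of CPM was 11.3%, against 13.8% over all tested genes, which are not matched for level. By the F ratio described further on, which compares genes of the same mean count, the medians were 0.751 and 0.860.

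Genes of the mature beta cell were all present. G6pc2, the islet glucose-6-phosphatase, led with 666, 1485 and 1123 TPM, followed by Ero1lb, an oxidase of disulfide formation, with 596, 612 and 568 TPM, and Slc30a8, the zinc transporter of insulin granules, with 568, 502 and 475 TPM. Abcc8, a subunit of the ATP-sensitive potassium channel, stood at 308, 258 and 268 TPM, and Slc2a2, the glucose transporter GLUT2, at 309, 287 and 200 TPM. All 16 listed genes reached 1 TPM and 8 reached 100 TPM. Replicate 2, the library with the most insulin, was highest for 11 of the 16 by CPM and for 8 by TPM.

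Alpha and delta cell genes were also found beyond their hormones. Ttr, transthyretin, stood at 2119, 1240 and 1673 TPM, and Slc7a2, an amino acid transporter, at 92.7, 69.8 and 74.6 TPM. Gc, the vitamin D-binding protein, stood at 71.9, 59.8 and 59.7 TPM. None of the 10 listed alpha cell genes was highest by CPM in replicate 2, and 7 were lowest there, Gcg included. Of the delta cell genes, Rbp4 was at 309, 222 and 317 TPM, Hhex at 9.30, 6.31 and 9.94 TPM, and Ghsr and Crhr2 near 1 TPM.

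Transcription factors stood below each hormone gene but Ghrl. Pax6 led the 30 listed with 218, 136 and 154 TPM, followed by Nkx2-2 with 137, 110 and 119, Mlxipl with 135, 92.7 and 128, Nkx6-1 with 115, 127 and 113, and Mafa with 116, 85.1 and 113 TPM. Together the 30 held 0.143%, 0.109% and 0.135% of TPM. Pax4, a factor of early beta cell development, had no read in any library, and Foxa1 stood at 0.0129, 0.0226 and 0 TPM against 31.7, 38.3 and 47.9 TPM for Foxa2. Neurog3, the factor of endocrine progenitors, was low but present at 2.43, 4.35 and 4.98 TPM; Foxa1, Foxa2 and Neurog3 were chosen after their values were seen.

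Among 29 genes that couple glucose to hormone release, all had at least 1 TPM and 2 had 100 TPM or more, Abcc8 and Slc2a2. Glp1r, the receptor of the incretin GLP-1, stood at 86.9, 128 and 82.3 TPM, Syt7, a calcium sensor of exocytosis, at 109, 90.6 and 97.2 TPM, and Vamp2, a vesicle fusion protein, at 101, 80.5 and 97.9 TPM. The 16 genes known as disallowed in beta cells, which are kept low there though common elsewhere, had a median of 1.73 TPM. Of these 16, 9 had a mean of at least 1 TPM, a share similar to the 55.5% of all protein-coding genes. The highest of the 16 were Oat at 17.2, 6.18 and 14.8 TPM and Ldha at 17.8, 6.45 and 12.2 TPM. Of the 15 tested, 14 were lowest in replicate 2 by CPM and by TPM. The complexes that methylate histone H3 lysine 4, the pathway named in the series title, were present in all 15 members, led by Dpy30 at 45.6, 44.8 and 56.2 TPM, Paxip1 at 31.5, 38.4 and 42.4 TPM and Cxxc1 at 22.6, 19.6 and 24.8 TPM.

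RNA of cells that are not endocrine was small in amount, and how far it differed between libraries depended on the list and the scale. The 20 listed acinar genes, which make digestive enzymes, summed to 2766, 3743 and 1177 TPM, led by Ctrb1, chymotrypsinogen, at 485, 713 and 218 TPM, Try4, a trypsinogen, at 365, 462 and 154 TPM, and Cela2a, an elastase, at 270, 388 and 117 TPM. Each of the 19 tested acinar genes was lowest in replicate 3, and replicate 2 was highest for 19 by CPM and 18 by TPM. Their sequence families are close, so reads can be split among members. Endothelial genes summed to 287, 195 and 271 TPM, led by Plvap at 78.6, 54.9 and 77.1 TPM, and mesenchymal and pericyte genes to 234, 135 and 243 TPM, led by Mgp at 51.1, 46.8 and 58.6 TPM. Macrophage genes summed to 221, 268 and 159 TPM, with Cd74 at 69.3, 97.9 and 50.5 TPM. By CPM the endothelial sums were 860, 666 and 801, a 1.29-fold range. The mesenchymal and pericyte sums were 651, 408 and 719 CPM, a 1.76-fold range. Those of the macrophage genes were 238, 335 and 171 CPM, a 1.95-fold range.

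Haemoglobin was carried by Hba-a2 at 287, 64.8 and 247 TPM and Hbb-bs at 262, 65.4 and 243 TPM, and the 5 red blood cell genes were each lowest in replicate 2. The ductal list summed to 723, 235 and 333 TPM, but most of it was the epithelial keratins Krt8 at 356, 61.3 and 82.9 TPM, Krt18 at 200, 46.0 and 81.9 TPM and Krt7 at 113, 79.3 and 122 TPM. Its defining members were near 0, with Sox9 at 0.461, 0.318 and 0.628 TPM, Krt19 at 1.37, 0.538 and 0.715 TPM and Cftr at 0.0949, 0.0166 and 0.0125 TPM. Lymphocyte genes were close to absent apart from Cd79a at 14.2, 7.91 and 6.04 TPM. Of the adipocyte genes, Fabp4 stood at 8.32, 5.60 and 8.44 TPM, while Adipoq, Cfd and Lep had none. The lymphatic chemokine Ccl21a and the gut peptide Nts also had no read in any library.

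In all, 26112 of 54119 genes (48.2%) had no read in any of the 3 libraries, and 55.0%, 56.2% and 55.7% had none in replicates 1, 2 and 3 taken singly. A count of 0 over the 3 libraries allows a level of up to 0.0401 CPM (3 counts over all, counting error only). Over replicates 1 and 3 alone the share was 50.6%. Among 21806 protein-coding genes, 4392 (20.1%) had no read and 12110 had a mean of at least 1 TPM. Of 5475 lincRNA genes, 62.6% had no read and 285 reached 1 TPM, with Gm42418 at 586, 650 and 574 TPM and Meg3, an imprinted RNA, at 370, 396 and 397 TPM the highest after Bc1. Of 2955 antisense genes, 49.6% had no read.

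Silence followed gene families, which were picked after the files were seen. Of 1134 olfactory receptor genes (Olfr), 817 had no read and 3 reached 1 TPM. Taste receptors of the Tas2r family had no read in 33 of 35 genes, and keratin-associated proteins of hair (Krtap) in 54 of 57. Hox genes, which pattern the body axis, had no read in 16 of 39, and none reached 1 TPM. At the other end, all 37 Nduf genes named as subunits of respiratory complex I, its assembly factors not counted, and 38 of 40 proteasome (Psm) genes reached 1 TPM. Solute carriers (Slc) lay between, with 193 of 370 at 1 TPM or more. By chromosome, the share of protein-coding genes with no read was 89.7% on Y, 34.3% on X and 11.1% to 29.0% on the autosomes; the Y value rests on 2 libraries with Y-linked RNA.

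**Figure D3:**
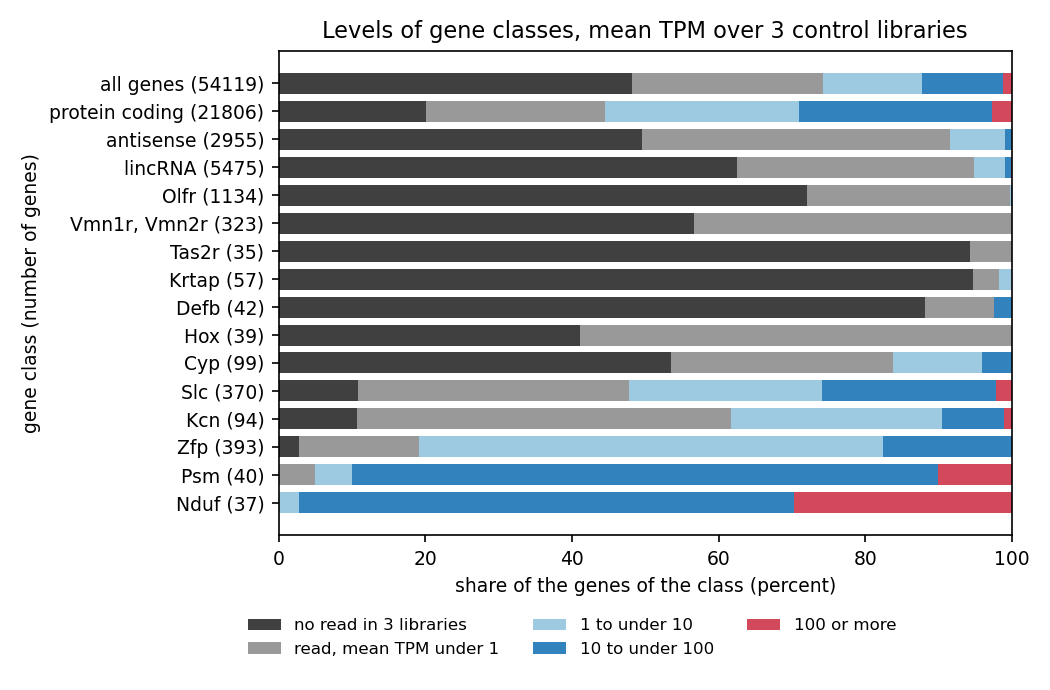
Share of the genes of each class (percent) by level, from no read in the 3 control libraries (dark) to a mean of 100 TPM or more (red); numbers of genes stand beside the names. Receptor and keratin-associated families lie almost wholly in the 2 lowest levels and the Nduf genes almost wholly above 10 TPM.

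Which genes varied most between replicates was asked of 15325 genes. An F ratio set each gene's variance against the trend of genes of the same mean count, in an edgeR quasi-likelihood fit with only a mean. With Benjamini-Hochberg adjustment 0 genes passed 0.05, that is 0% of those tested, and the smallest adjusted p by edgeR was 0.291. Without adjustment, 716 genes (4.67%) had a p below 0.05. By limma the count after adjustment was also 0, with 733 unadjusted, while 186 genes (1.21%) were dispersion outliers by DESeq2. Without replicate 2 the edgeR count was 0 again, with 858 genes (5.46%) unadjusted. With 3 libraries a count of 0 does not show that genes vary alike, so what follows is a description, and genes named for their spread were chosen after their values were seen. The filter asked for a level of about 10 reads or more in each of the 3 libraries. For this reason 138 of 9481 genes of at least 5 TPM were not tested, 5 of them protein coding: Atf3, Egr3, Ddx3y, Eif2s3y and Uty.

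Of the tested genes of at least 5 TPM, Xist had the largest F ratio (adjusted p = 0.291 by edgeR), followed by Fosb, Arc, Fosl2, Tnfaip3, Sik1, Maff, Nr4a2, Csrnp1, Arid5a, Npas4 and Nr4a1. Arc, which is induced by synaptic activity in neurons, stood at 333.7, 2.05 and 42.6 CPM. Npas4, a transcription factor induced by calcium entry, stood at 168.0, 5.89 and 24.7 CPM. Sik1, a kinase induced by cyclic AMP, stood at 210.8, 8.43 and 8.23 CPM. Of the 40 such genes of largest F ratio, 35 were highest in replicate 1, 2 in replicate 2 and 3 in replicate 3, and 31 were lowest in replicate 2; over all tested genes, 5619, 4734 and 4972 were highest in replicates 1, 2 and 3.

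Immediate early genes are transcribed within minutes of a stimulus from factors already present in the cell, and many encode transcription factors or brakes on signalling. The 14 listed summed to 4864, 155 and 2106 TPM, and by CPM to 11360, 366 and 4582, a 31.0-fold range. All 12 that were tested had an unadjusted p below 0.05 by edgeR, against 4.67% of all tested genes, and none passed after adjustment. Without replicate 2, replicate 1 was 2.48-fold above replicate 3, and 7 of the 12 had an unadjusted p below 0.05 against 5.46% of all genes. The list was chosen with earlier results of these data known, and its members were read in the same libraries. These counts are therefore a description and not independent support.

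Among the AP-1 subunits, Fos stood at 1641, 17.1 and 1244 CPM and Jun at 902, 38.7 and 813 CPM. Both were high in replicates 1 and 3 and low in replicate 2. Fosb stood at 3088, 0.450 and 381 CPM, Junb at 879, 18.2 and 262 CPM, and Jund at 496, 78.9 and 180.5 CPM. All 3 were highest in replicate 1 and lowest in replicate 2, as was Nr4a1, an orphan nuclear receptor, at 1146, 34.3 and 83.9 CPM. Egr1, a zinc finger factor, stood at 912, 15.1 and 720 CPM, close to the pattern of Fos. Atf3, a stress-induced factor left out of the test, stood at 509.8, 0.205 and 26.6 CPM.

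Of the genes that restrain signalling or mRNA, Dusp1, a MAP kinase phosphatase, stood at 147, 16.7 and 178 CPM, Zfp36, which speeds mRNA decay, at 234, 16.0 and 119 CPM, and Btg2, an inhibitor of cell division, at 1154, 92.2 and 442 CPM. Only Dusp1 among them was highest in replicate 3. Myc, a growth factor-induced transcription factor, went against the list with 7.15, 30.5 and 10.1 CPM and was the 1 member of 12 tested that was highest in replicate 2.

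**Figure D4:**
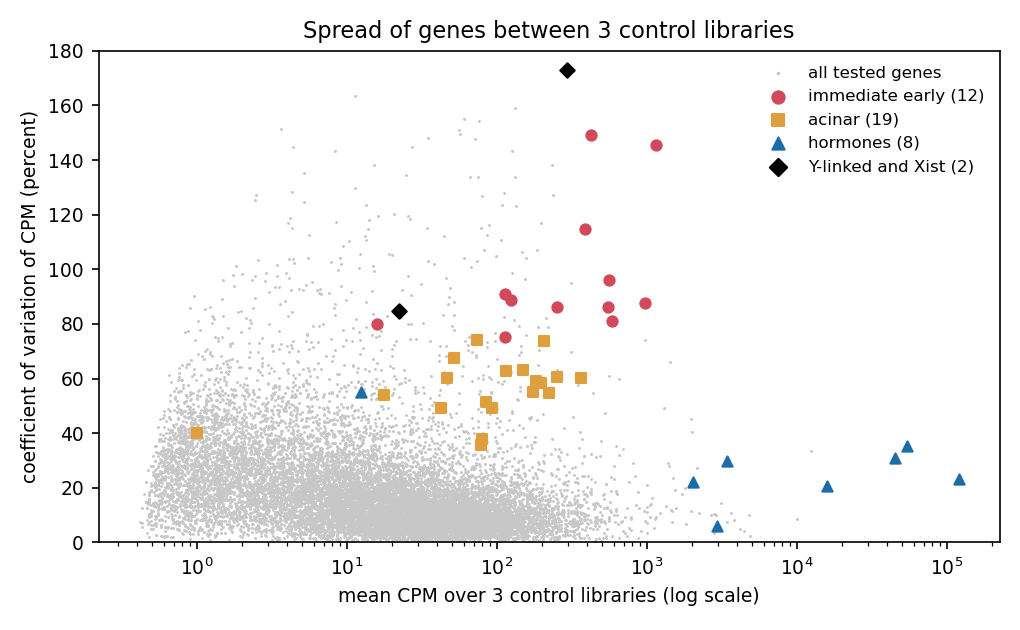
Coefficient of variation of CPM (percent) against mean CPM (log scale) over the 3 control libraries, with each tested gene in grey and 4 gene lists marked (members tested in brackets). Immediate early genes lie between 75.1% and 149%, above the acinar genes at 35.6% to 74.1%, and the hormones lie between 6.14% and 55.2%.

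The promoters of these genes were searched because most members were highest in replicate 1 (10 of 12 tested). RefSeq windows (GRCm38.p6, 250 bases before the start of the gene) were at hand for 11 of the 14 genes, in 15 windows, and 5 motifs were searched on both strands, chosen after the spread had been seen. TGACG, a shorter form contained in the full cyclic AMP response element, was in 66.7% of the 15 windows (8 of 11 genes), against 17.8% of all 32851 windows. The full element TGACGTCA was in 13.3%, against 1.55% of all windows. TATAAA was in 6.67% against 12.4%, while TAATTA and 1 form of the CArG box of serum response factor were in none, against 4.84% and 0.0609%. That form was in only 20 of all 32851 windows, so finding none in 15 says nothing about such sites in these genes. Other forms of the box and bases further upstream were not searched. In the hormone promoters (7 of 8 genes, 11 windows), TATAAA was in 18.2%, TGACG and TGACGTCA in 9.09% each and the other motifs in none. Windows of 1 gene can overlap, and a match is a description of these letters and not a bound site. No list besides these was searched, and a link of the motifs to the spread between replicates was not tested. The 30 bases around the TGACG nearest to the start are shown 5′ to 3′ on the strand of the gene, with TGACG or its complement CGTCA in capitals, between 7 and 163 bases before the start, to let the 8 sites be compared.
Fos, chr12:85473812-85473841, plus strand: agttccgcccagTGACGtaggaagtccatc
Fosb, chr7:19310088-19310117, minus strand: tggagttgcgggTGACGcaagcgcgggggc
Junb, chr8:84978837-84978866, minus strand: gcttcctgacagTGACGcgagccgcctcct
Nr4a1, chr15:101266794-101266823, plus strand: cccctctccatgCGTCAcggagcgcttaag
Atf3, chr1:191183334-191183363, minus strand: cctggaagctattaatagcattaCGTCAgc
Egr2, chr10:67537802-67537831, plus strand: tatgggcagcgaCGTCAcgggtattgaaga
Btg2, chr1:134079301-134079330, minus strand: tcccaataatgaCGTCAgtgagcgatgacc
Dusp1, chr17:26508595-26508624, minus strand: tagggcgggtgaCGTCAccgcccggtcacg
In Btg2 and Dusp1 the marked letters are part of the full TGACGTCA.

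Other lists parted the libraries in other ways. The acinar list ranged 3.83-fold by CPM, and 18 of its 19 tested members had an unadjusted p below 0.05 by edgeR, against 4.67% of all tested genes, and none after adjustment. Without replicate 2 the count was 17, against 5.46% of all genes, and replicate 1 was 2.46-fold above replicate 3. The acinar list too was chosen with earlier results known, so its counts are a description only. The chemokine and inflammation list was highest in replicate 1, at 163, 35.9 and 50.2 summed CPM, led by Nfkbia, the inhibitor of NF-kappa B, at 118, 32.6 and 42.8 CPM and Il1b at 13.2, 1.23 and 1.02 CPM. Only 3 of its 10 members were tested. Circadian clock genes were highest in replicate 1 for 11 of 13, with Dbp at 235, 93.2 and 102 CPM, Cry2 at 415, 113 and 111 CPM and Nr1d1 at 267.5, 56.6 and 98.6 CPM; the hour at which islets were taken is not in the labels.

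The inducible heat shock genes Hspa1a, at 115, 15.7 and 582 CPM, and Hspa1b, at 70.1, 24.6 and 601 CPM, were highest in replicate 3, as were all 7 heat shock genes listed by CPM and 6 by TPM; these 2 are near copies, so reads can be split between them. The proliferation genes Top2a, at 47.2, 127 and 126 CPM, and Cdk1, at 8.59, 21.0 and 20.7 CPM, were lowest in replicate 1, as were 12 of the 14 cell cycle genes. Within the endoplasmic reticulum folding list, members split: Hspa5, a chaperone, stood at 2631, 1094 and 2294 CPM, while Calr, a calcium-binding chaperone, stood at 565, 841 and 872 CPM. In the beta cell list Cox6a2, a muscle-type subunit of cytochrome oxidase, stood at 5.58, 42.2 and 9.45 CPM and Prlr, the prolactin receptor, at 200, 487.5 and 281 CPM. Cish, a target of cytokine signalling through STAT5, stood at 32.5, 197 and 27.7 CPM. All 3 were highest in replicate 2 and were chosen after their values were seen.

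**Figure D5:**
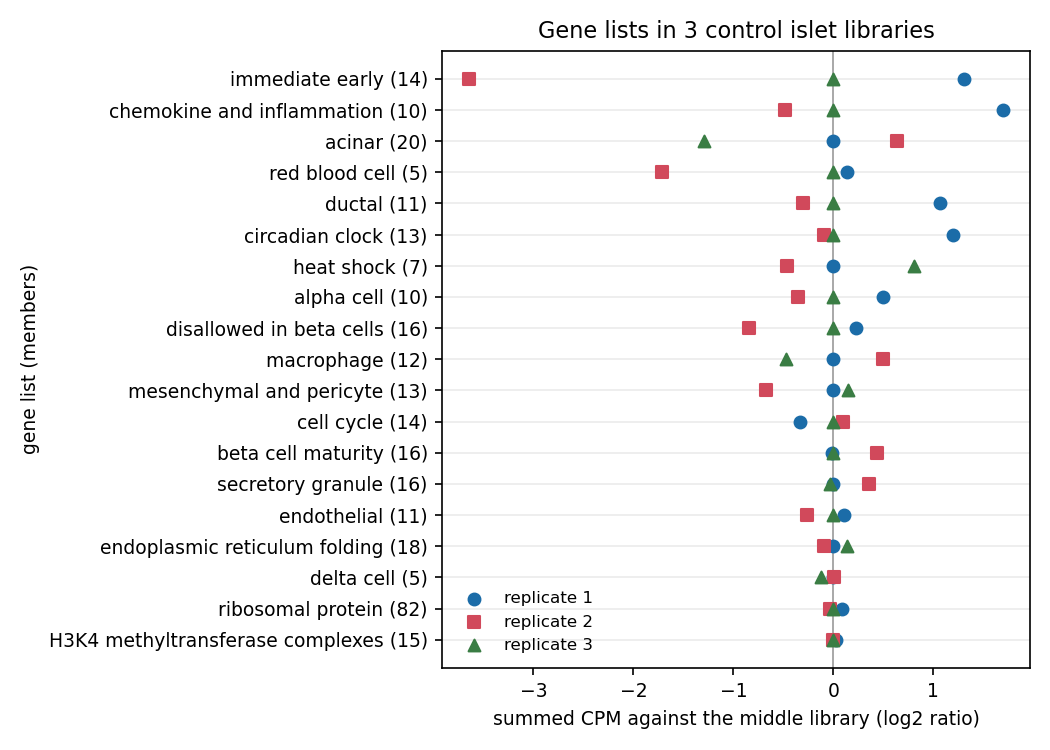
Summed CPM of 19 gene lists in each control library, as the log2 ratio to the middle of the 3 libraries, with the number of members in brackets. Replicate 2 lies far below the others for immediate early and red blood cell genes, replicate 3 lies lowest for acinar genes, and ribosomal protein and H3K4 methyltransferase genes lie together.

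Several measured properties moved with the libraries. Replicate 2 differed in its sex-linked RNA, had the largest insulin share and the least haemoglobin RNA; the rank correlation across 9663 genes of a gene's deviation with transcript length was 0.151, -0.0249 and -0.160 in replicates 1, 2 and 3. Their part in the spread of the immediate early or other genes was not tested.

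Ribosomal protein genes summed to 37734, 30446 and 36202 TPM, with 77 of the 79 tested lowest in replicate 2 by TPM and 49 by CPM. None of the 79 had an unadjusted p below 0.05 by edgeR, against 4.67% of all tested genes, which does not show that they did not differ. Their coefficients of variation of CPM ran up to 48.0%, and the median coefficient of variation of CPM was 6.12%, against 13.8% for all tested genes. Their median F ratio was 0.296, against 0.860 for all tested genes. Rpl41, the highest, stood at 1581, 1415 and 1624 TPM; Rpl10l, a testis paralogue, had no read. Among genes of at least 50 TPM, the smallest coefficients of variation of TPM were those of Grcc10 at 97.7, 96.6 and 97.8 TPM, Selenot, a selenoprotein of the endoplasmic reticulum, at 110, 112 and 113 TPM, Tmem242 at 59.0, 57.6 and 58.7 TPM, Ids, a lysosomal sulfatase, at 76.4, 74.4 and 75.5 TPM, and Wdr6 at 77.9, 79.8 and 79.6 TPM. Next came Arl6ip1, Atp2c1, Tmed4, Tmbim6 and Abcd3. Their order depends on the scale: by CPM the same 10 genes had coefficients of 5.54% to 15.8%, in place of 0.637% to 1.83% by TPM.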

How the data were processed

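The 3 control libraries were used; the knockout libraries and the authors' table of fold changes were not. Per the file headers, the deposited estimated counts and TPM per transcript have the layout of Salmon output; the submitters' processing notes name Trimmomatic, Salmon, DESeq2, GRCm38 and mm10 without settings. The authors' deposited gene table holds a signal per gene with no length scaling, and was used only for shares. Here transcripts were summed to GENCODE genes (139852 of 140948 transcripts matched), so levels rest on the submitters' transcript lengths and their split of reads between similar transcripts. For spread, the estimated counts were rounded and fitted in edgeR 4.0.16 (R 4.3.3) with TMM scaling, filterByExpr (minimum count 10), an intercept only, and the Benjamini-Hochberg threshold 0.05; limma 3.58.1 and DESeq2 1.42.0 were alternatives. The method was tested on simulated data, with 100 genes raised 4-fold and 100 raised 16-fold in 1 library. Where all genes followed the trend in spread, it called 51 and 99 of them. Where genes also differed in spread, by a random factor set from the fit, it recovered none of the changed genes. A count of no calls thus says little about how genes vary. Whether this factor was as wide as the real differences between genes was not checked. Larger changes were not simulated. Library sizes were 24575889 to 25354384 estimated reads. The labels call the libraries biological replicates of separate mice.

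The genes named were the 25 highest by mean TPM, the 8 hormones, up to 5 of each list of 34 and its members at 0, the 3 highest lincRNAs or antisense genes, and the 10 of at least 50 TPM with the smallest coefficient of variation; the rule also asked for the 15 called genes of largest spread, and none was called. Others are marked as chosen after their values were seen, and so were members of a list beyond its 5 highest. The members and lists were chosen with earlier results of these data known. Promoter sequences are from RefSeq (GRCm38.p6). Some genes that the rule names are not reported here.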

Additional observations from a re-analysis of the deposited data

How the results depend on the processing

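The insulin and hormone shares moved by less than 1 SD of the replicates without mitochondrial genes, over protein-coding genes only, with Ins1 to its RefSeq end and by full transcript length, where the hormone share of 50.5% lay below all 3 libraries; leaving out 1 replicate gave insulin shares of 41.7% to 48.6% and hormone shares of 52.6% to 57.3%. By estimated reads they were 17.3% and 24.3%, the same to 3 digits as in the authors' deposited gene table, since neither has length in it. The mean number of genes holding 50% was 3.67 over the 3 libraries, 416 by estimated reads and 446 without the hormones. The share of genes with no read, 48.2%, became 62.9% for a mean below 0.1 TPM, 74.3% below 1 TPM, 64.9% below 10 reads in all and 20.1% for protein-coding genes, and 50.6% to 51.4% with 1 replicate left out. The count of genes varying beyond the trend was 0 in the edgeR and limma alternatives run, leaving out each replicate in turn included, and 186 by DESeq2's dispersion outliers. The full-length, Ins1 and list scalings were chosen after seeing the data. No paired analysis was possible because all libraries belong to 1 group. With 3 mice, and 1 library against its label, the spread between control animals is known only roughly.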
